A study of Rattus norvegicus with 15 samples.

Results

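Articular cartilage of the rat knee was compared between 2 stages of life, T3 (early-stage elderly) and T0 (newborn). The comparison took the 3 T3 arrays and the 3 T0 arrays by their stage label, 6 of the 15 arrays of the series, and covered every gene on the array. The other stages were T1 (youth), T2 (adult) and T4 (latter-stage elderly), also with 3 arrays each. All animals were Sprague-Dawley rats, the tissue came from the right knee, and no treatment or genetic change is labelled in either group. Each array held biotin-labelled total RNA, extracted with Trizol from ground frozen cartilage, on an Affymetrix RaGene 2.0 ST array. The labels call the arrays of a stage biological replicates. The sources used here give no ages in days or months, no sexes, no numbers of animals per array and no array batches, so stage cannot be told apart from any of these that moved with it.

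Articular cartilage covers the ends of bones. Its cells, the chondrocytes, build a matrix of type II collagen fibrils filled with aggrecan, a proteoglycan that holds water. In a newborn rat the knee ends are still growing cartilage in which cells divide and collagen is laid down. In a grown animal the chondrocytes divide rarely, type II collagen is hardly replaced, and the cartilage lies on bone whose marrow makes blood cells.

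Of 36685 probe sets, 6555 (17.9%) differed between T3 and T0 at a Benjamini-Hochberg adjusted p under 0.05 in limma's moderated test, hereafter a call. At the level of genes, 1590 of 18166 (8.75%) rose at T3 and 2527 (13.9%) fell. Counts within the lists below stand against these shares. The T3 and T0 arrays did not overlap for 8013 of the 18166 genes, so a lack of overlap was common. The median change over all genes was 0.08 on the log2 scale, and every change below is the T3 mean minus the T0 mean on that scale. Rises made up 38.6% of gene calls and 46.5% of probe set calls. Once each array was centred on its median, rises made up 27.0% of gene calls and 33.0% of probe set calls, and the median change of all genes was -0.08. Centring with scaling to an equal spread gave 30.8% of gene calls and 34.9% of probe set calls.

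The T3 arrays differed from the T0 arrays in more than single genes. The SD of signals over probe sets was 1.89 ± 0.07 on the T3 arrays and 2.02 ± 0.02 on the T0 arrays (SD, n = 3 each). Arrays of the same stage correlated at a mean of 0.93 for T3 and 0.977 for T0. Olfactory receptor genes, which have no known role in cartilage, had median signals of 3.23, 3.41 and 3.00 on the T3 arrays against 3.03, 2.92 and 2.89 on the T0 arrays. Among their 1185 members, 45 rose (3.8%) and 6 fell (0.506%), both shares below those of all genes. Most of their changes were upward all the same, 966 above 0 and 218 below, at a median of 0.28. Of all genes, 10089 changed upward and 8075 downward, at a median of 0.08. Of the 1590 genes that rose, 176 (11.1%) had both stage means under a log2 signal of 5, against 47 of the 2527 that fell (1.86%) and 5606 of all 18166 genes (30.9%). Dim genes were thus a smaller share of the calls in either direction than of all genes. The part of these array differences in the results below was not tested.

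Most of the 12 largest rises were of genes known from blood, marrow or mast cells. Defa5, an alpha-defensin, had log2 signals of 12.09, 12.20 and 12.62 on the T3 arrays (replicates 1, 2 and 3), against 6.38, 4.15 and 4.36 on the T0 arrays. It rose by 7.34 (SE 0.75, 162-fold, limma adjusted p = 1.31e-05). T0 replicate 1 stood above the other newborn arrays, and no T3 array came near it. Jchain, which joins immunoglobulin units into polymers, had signals of 10.78, 10.64 and 10.84 on the T3 arrays against 4.17, 3.92 and 4.25 on the T0 arrays, a rise of 6.64 (SE 0.66, adjusted p = 1.03e-05). Next came the defensin Defa11 (6.64), the granule protease Mcpt8l2 (6.48), the calcium-binding inflammatory protein S100a8 (5.96) and Ms4a3, a membrane protein of granulocyte precursors (5.91). The protease Mcpt8 (5.39), the erythroid nuclear protein Hemgn (5.36), the red cell carbonic anhydrase Car1 (5.31), myeloperoxidase Mpo (5.28), the antimicrobial peptide Camp (5.27) and the protease Mcpt9 (5.25) completed the 12. In a bulk sample, more cells of a type and more RNA per cell cannot be told apart, and this holds for falls as well.

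The largest falls were of muscle genes, growth genes and a few others. Myh8, the perinatal myosin heavy chain of skeletal muscle, had signals of 4.27, 4.25 and 3.91 on the T3 arrays against 11.47, 11.74 and 11.33 on the T0 arrays. It fell by 7.37 (SE 0.20, 166-fold, limma adjusted p = 1e-10). Igf2, a fetal growth factor, had 5.49, 5.56 and 5.12 on the T3 arrays against 12.40, 12.39 and 12.44 on the T0 arrays, and fell by 7.01 (SE 0.26, 129-fold, adjusted p = 1.76e-09). In both genes the arrays of a stage lay close together and far from the other stage. The muscle genes Actn2 (-6.61), Myl1 (-6.32), Casq1 (-5.98), Csrp3 (-5.79) and Casq2 (-5.77) followed. Among the falls were also the corneal and tendon proteoglycan Kera (-6.33), the membrane protein Itm2a (-6.32), the calpain family member Capn6 (-6.12), Gnas (-6.04) and Fndc3c1 (-5.86). The Gnas locus makes several transcripts, of which the stimulatory G protein subunit is one, and this probe set cannot be assigned to that subunit.

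**Figure D1:**
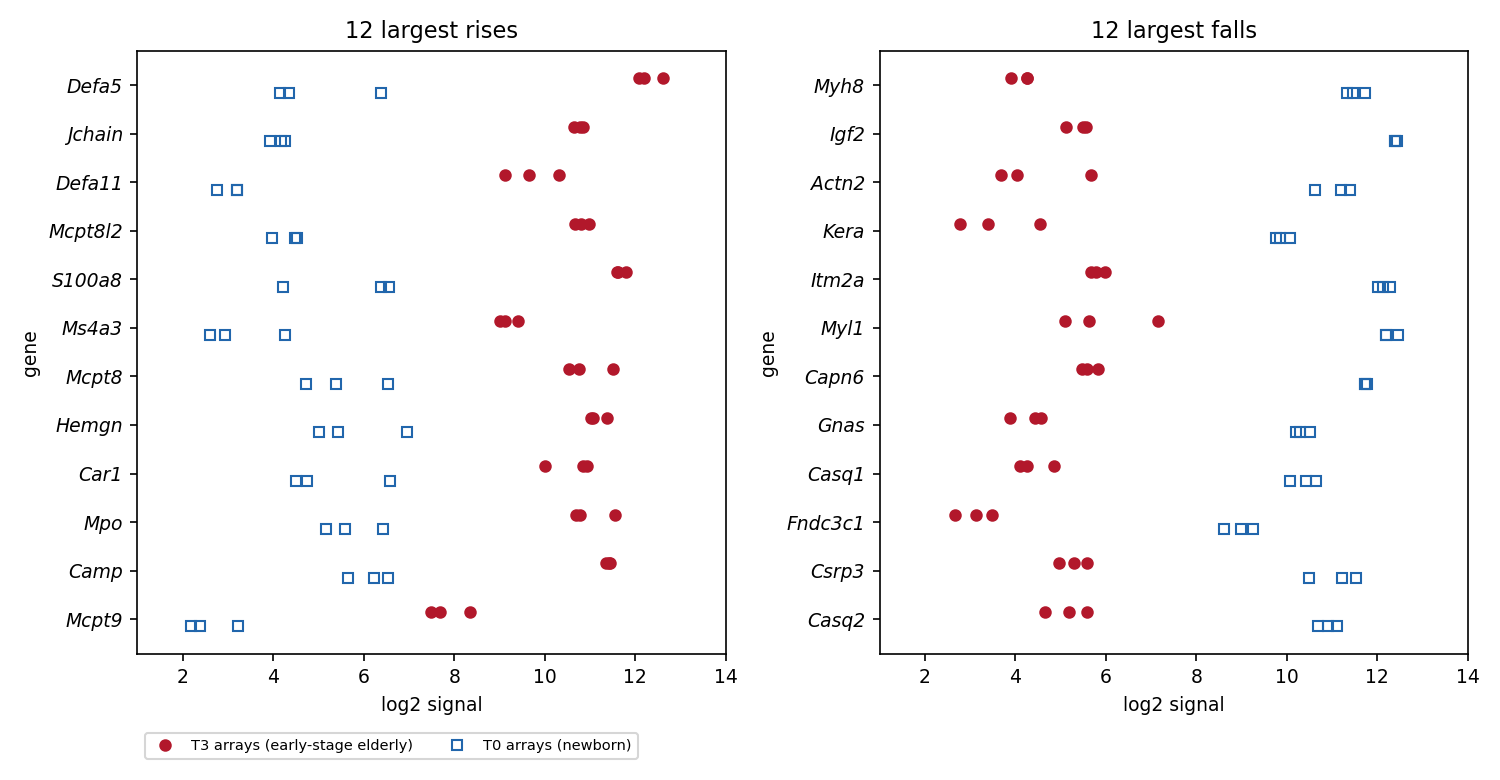
Log2 signal (x axis) of the 12 genes with the largest rise (left) and the 12 with the largest fall (right) on each T3 array (filled circles, above) and each T0 array (open squares, below), 3 arrays a stage. The stages do not overlap for any of these genes, which the choice of genes required, and the T0 arrays of Defa5 lie apart (6.38, 4.15 and 4.36).

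Genes of the cartilage matrix fell together, with 16 of 23 measured members lower at T3 and 1 higher, against 13.9% and 8.75% of all genes. Their median change was -2.62. Col2a1, the chain of type II collagen, had signals of 10.35, 8.80 and 9.96 on the T3 arrays against 12.36, 12.30 and 12.41 on the T0 arrays. It fell by 2.66 (SE 0.56, limma adjusted p = 0.00398). Acan, the aggrecan core protein, had 8.96, 8.0 and 9.88 on the T3 arrays against 11.71, 11.50 and 11.82 on the T0 arrays, a fall of 2.73 (SE 0.47, adjusted p = 0.000899). The T3 arrays lay below all T0 arrays in both genes, spread wider than the newborn ones, and were lowest in replicate 2. Both genes remained among the brighter ones on the elderly arrays, where the median of all genes was 5.64 ± 0.02 (SD, n = 3).

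The largest falls of the list were in Epyc and Matn1. Epyc, epiphycan, a small proteoglycan of growth plate cartilage, had signals of 4.61, 4.65 and 4.20 on the T3 arrays against 9.39, 9.09 and 9.31 on the T0 arrays (change -4.78, SE 0.22, limma adjusted p = 1.18e-08). Matn1, matrilin 1, a link between collagen fibrils and proteoglycans that adult articular cartilage normally lacks, had 5.94, 5.54 and 5.58 on the T3 arrays against 10.33, 10.35 and 10.30 on the T0 arrays (change -4.64, SE 0.23). On the T3 arrays both genes lay near the middle of all genes or below it. Col9a2, a chain of the type IX collagen that coats type II fibrils, fell by 3.30 (SE 0.23), and Hapln1, the link protein that binds aggrecan to hyaluronan, by 2.62 (SE 0.25). Further falls were seen for Matn3 (-3.73), the collagen chains Col9a1 (-3.66), Col11a1 (-3.43) and Col11a2 (-2.18), the anti-angiogenic Cnmd (-3.15), Ucma (-2.74), Fmod (-2.65), Scrg1 (-1.97), Mia (-1.84) and Snorc (-0.82). The call of Snorc was lost without T3 replicate 1 or 2 or T0 replicate 1 or 3.

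Chad, chondroadherin, a leucine-rich protein that binds chondrocyte integrins, went the other way. It had signals of 9.53, 9.52 and 11.52 on the T3 arrays against 8.42, 8.30 and 8.87 on the T0 arrays, and rose by 1.66 (SE 0.49, limma adjusted p = 0.0302). T3 replicate 3 was the highest by far, and the call was lost without T3 replicate 3, T0 replicate 1 or T0 replicate 2. The intermediate-layer protein Cilp had a change of 0.44, Cilp2 of 0.64, Prelp of -1.46, Otos of 0.41, Vit of -0.33 and Lect2 of 0.63, and none of these 6 was called.

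**Figure D2:**
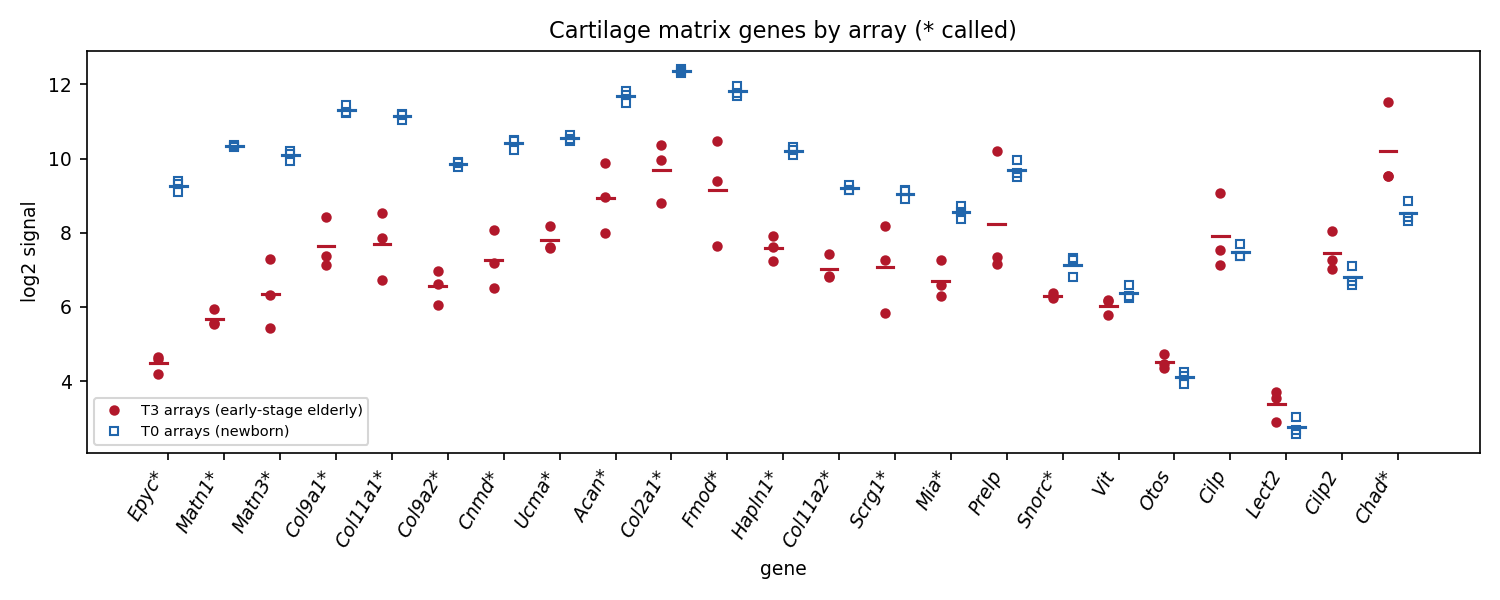
Log2 signal (y axis) of the 23 measured cartilage matrix genes (x axis, ordered by change) on each T3 array (filled circles, left of each pair) and T0 array (open squares, right), with a line at each stage mean and a star on called genes. The T3 arrays lie below the T0 arrays for the 16 genes that fell, from Epyc (-4.78) to Snorc (-0.82), and above them for Chad (1.66).

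The genes that make, fold and crosslink collagen also fell, 25 of 30 with none higher, at a median change of -2.38. P4ha3, a prolyl hydroxylase subunit that stabilises the collagen helix, had signals of 5.76, 5.36 and 5.90 on the T3 arrays against 9.96, 9.72 and 9.79 on the T0 arrays (change -4.15, SE 0.20, limma adjusted p = 1.66e-08). The fibril-associated Col14a1 fell by 4.69 (SE 0.48), the type VI chain Col6a2 by 2.15 (SE 0.22), and P3h4, part of a lysyl hydroxylation complex, by 2.63 (SE 0.26). Lox, the main crosslinking oxidase, fell by 3.67, Col12a1 by 3.79 and Col3a1 by 3.15. The type I collagen chains Col1a1 and Col1a2 had changes of -1.34 and -1.64, which were not called. All 30 changes were below 0, without overlap between the stages. The count of falls was 29 with the 6 arrays alone, without the T4 arrays, with array weights or after cyclic loess. It was 23 after quantile normalization or without T3 replicate 2.

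Elastic fibre and microfibril genes fell in 14 of 17 cases, with none higher and a median of -2.21. Eln, elastin itself, had signals of 5.08, 5.38 and 5.55 on the T3 arrays against 9.70, 9.0 and 8.80 on the T0 arrays (change -3.83, SE 0.28, limma adjusted p = 6.99e-07). The microfibril proteins Mfap4 (-5.07, SE 0.39), Mfap5 (-4.69, SE 0.43) and Mfap2 (-3.25, SE 0.26) fell as well. Periostin, Postn, a matricellular protein of growing connective tissue, fell by 5.59.

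Of 21 matrix proteases and inhibitors 9 fell, and Mmp8, the neutrophil collagenase, was the 1 that rose (4.17). The gelatinase Mmp2 fell by 2.83 (SE 0.48), the membrane-bound Mmp14 by 2.73 (SE 0.30), Mmp16 by 2.18 (SE 0.31) and the inhibitor Timp1 by 2.23 (SE 0.42). Mmp13, the main collagenase of type II collagen, had signals of 9.70, 9.55 and 9.23 on the T3 arrays against 10.40, 8.74 and 10.44 on the T0 arrays. Its stages overlapped, and the change of -0.36 (SE 0.67) was not called (limma adjusted p = 0.753). The aggrecanase Adamts5 fell by 1.18, while Adamts4 had an uncalled change of -0.23. Without T0 replicate 1, 5 of the 21 fell.

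Enzymes of glycosaminoglycan synthesis, which build and sulfate the chondroitin chains of aggrecan, fell in 10 of 21 cases at a median of -0.96. Dse, an epimerase of the chain, fell by 2.28 (SE 0.23), the sulfotransferase Chst11 by 2.32 (SE 0.31), the polymerase Chsy1 by 1.74 (SE 0.21) and Ugdh, which makes glucuronic acid donors, by 1.90 (SE 0.26). Papss2, which makes the sulfate donor, fell by 2.89. The sulfotransferase Chst13 rose (1.07).

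Of 16 transcription factors of chondrocytes 5 fell and none rose, at a median of -0.30. Sox9, the master factor of the lineage, had signals of 4.93, 5.22 and 5.21 on the T3 arrays against 5.45, 5.25 and 5.46 on the T0 arrays. The arrays did not overlap, but the change was small at -0.27 (SE 0.18) and was not called (limma adjusted p = 0.337). Sox9 lay below the median of all genes (5.6 at either stage) on all 6 arrays, so a steady level cannot be read from this. Its partner Sox5 fell by 1.81 (SE 0.23), with 5.58, 5.40 and 5.47 on the T3 arrays against 6.93, 7.22 and 7.74 on the T0 arrays. Also lower were Zfp521, a repressor of chondrocyte maturation (-2.89, SE 0.22), Nfatc2 (-1.42, SE 0.17) and Trps1 (-1.49, SE 0.32). Sox6 had an uncalled change of 0.18.

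Hypertrophy is the enlargement of growth plate chondrocytes before bone forms. Of its 19 genes 9 fell and none rose, at a median of -1.04. Col10a1, the collagen of hypertrophic cells, had signals of 6.99, 6.83 and 8.09 on the T3 arrays against 9.05, 8.59 and 9.48 on the T0 arrays (change -1.74, SE 0.38, limma adjusted p = 0.00494). T3 replicate 3 came closest to the newborn arrays. Falls were also seen for Mef2c, a driver of hypertrophy (-2.72, SE 0.35), the channel protein Panx3 (-2.66, SE 0.44), the hedgehog-binding Hhip (-1.68, SE 0.28) and the growth-restraining receptor Fgfr3 (-1.57, SE 0.27). The mineralisation genes Alpl (-0.55) and Spp1 (-0.04) were not called.

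Superficial zone genes, of the cells at the joint surface, fell in 8 of 13 cases at a median of -1.96, yet Prg4 was not among them. Prg4, lubricin, the boundary lubricant of the joint, had signals of 9.16, 9.28 and 11.01 on the T3 arrays against 8.68, 9.14 and 9.73 on the T0 arrays. The stages overlapped, and the change of 0.64 (SE 0.51) was not called (limma adjusted p = 0.424). Cav1, a caveolar coat protein, had 5.24, 5.61 and 8.02 on the T3 arrays against 10.11, 10.15 and 10.16 on the T0 arrays (change -3.85, SE 0.53). T3 replicate 3 stood above the other T3 arrays in both genes. The secreted Wnt modulator Sfrp2 (-2.69, SE 0.43), the hyaluronan synthase Has2 (-2.45, SE 0.36) and Thbs4 (-2.35, SE 0.32) fell too.

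Imprinted and fetal growth genes had the largest median fall of any list but skeletal muscle, at -3.19, with 13 of 18 lower and none higher. These genes include an imprinted network that promotes or limits growth before and shortly after birth and is then shut down in many tissues. Plagl1, a zinc finger factor of the network, had signals of 6.37, 5.91 and 5.86 on the T3 arrays against 11.24, 11.29 and 11.27 on the T0 arrays (change -5.22, SE 0.26, limma adjusted p = 1.66e-08). Gpc3, a glypican of X-linked overgrowth, had 5.0, 5.67 and 4.78 on the T3 arrays against 10.45, 10.34 and 10.27 on the T0 arrays (change -5.20, SE 0.27). The newborn arrays of each gene lay close together, and the elderly ones lay far below. Dlk1, a Notch-like membrane protein of precursor cells, fell by 4.62, the insulin signal adaptor Grb10 by 4.10, Ndn by 3.78, the IGF2 clearance receptor Igf2r by 3.14 and the cell cycle inhibitor Cdkn1c by 2.81. Lin28b, an RNA-binding protein of fetal timing, had an uncalled change of 0.29.

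The wider IGF axis fell in 12 of 17 members at a median of -1.56. Igf1, the postnatal growth factor, had signals of 6.91, 7.29 and 7.94 on the T3 arrays against 10.53, 10.35 and 10.40 on the T0 arrays (change -3.04, SE 0.27, limma adjusted p = 3.7e-06). The binding protein Igfbp3 fell by 3.42 (SE 0.24), the binding protein protease Pappa2 by 2.72 (SE 0.29) and the receptor substrate Irs1 by 2.64 (SE 0.32). The receptors Igf1r (-1.93) and Ghr (-2.11) also fell.

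Between Dlk1 and Dio3, on chromosome 6, lies an imprinted cluster of microRNA genes. MicroRNAs are short RNAs that repress messenger RNAs paired with their seed, bases 2 to 8 of the mature strand. The array carried 53 microRNA genes of the cluster, of which 41 fell and none rose, at a median of -1.50, against 28 lower and 22 higher among the 310 other microRNA genes. The sequences below, from RefSeq (GRCr8), have the seed in capitals. The first 5 are shown because cluster genes that fell share a seed, and the last, rno-miR-493-3p and rno-miR-377-3p, because their genes fell strongly, with seeds that no other cluster gene shares. All 53 cluster genes had a mature sequence, 92 in all with 86 different seeds, and 5 seeds were shared between genes. The other shared seeds belonged to Mir299 with Mir299b and to Mir376b with Mir376c, of which only Mir299 was called (-0.99). The array reads a microRNA gene's precursor or host transcript, so the arms of a hairpin cannot be told apart.
rno-miR-539-3p: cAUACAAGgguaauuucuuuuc
rno-miR-381-3p: uAUACAAGggcaagcucu
rno-miR-494-5p: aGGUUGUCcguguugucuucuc
rno-miR-496-5p: aGGUUGUCcaugguguguuc
rno-miR-410-5p: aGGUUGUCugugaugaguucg
rno-miR-493-3p: uGAAGGUCuacugugugccag
rno-miR-377-3p: uGAAUCACacaaaggcaacuuuu

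All 5 genes with the shared seeds shown fell. Mir539 had signals of 2.27, 2.49 and 2.10 on the T3 arrays against 6.93, 7.08 and 7.04 on the T0 arrays (change -4.73, SE 0.18, limma adjusted p = 1.88e-09), and Mir381, with the same seed, fell by 1.38, with 2.38, 2.45 and 2.41 on the T3 arrays against 3.85, 3.60 and 3.93 on the T0 arrays. Mir494 (-2.61), Mir496 (-2.21) and Mir410 (-3.15) share the other seed shown. On the T3 arrays these genes lay at 2.10 to 3.62, among the dim signals of the array, so the sizes of their falls are not compared with each other. Mir493, whose seed no other cluster gene shares, had 2.99, 2.76 and 2.48 on the T3 arrays against 7.40, 7.68 and 7.48 on the T0 arrays (change -4.78, SE 0.18, adjusted p = 1.76e-09). Mir377 fell by 4.02 (SE 0.22), Mir380 by 3.99 (SE 0.48), Mir382 by 3.63 (SE 0.30) and Mir154 by 3.53 (SE 0.23). The elderly arrays lay between 1.96 and 3.63 for Mir539, Mir493, Mir377, Mir380, Mir382 and Mir154. Meg3, the long non-coding RNA of the same region, had signals of 5.10, 4.64 and 4.26 on the T3 arrays against 5.47, 5.46 and 5.21 on the T0 arrays. Its change of -0.71 (SE 0.25) was not called (limma adjusted p = 0.0592).

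**Figure D3:**
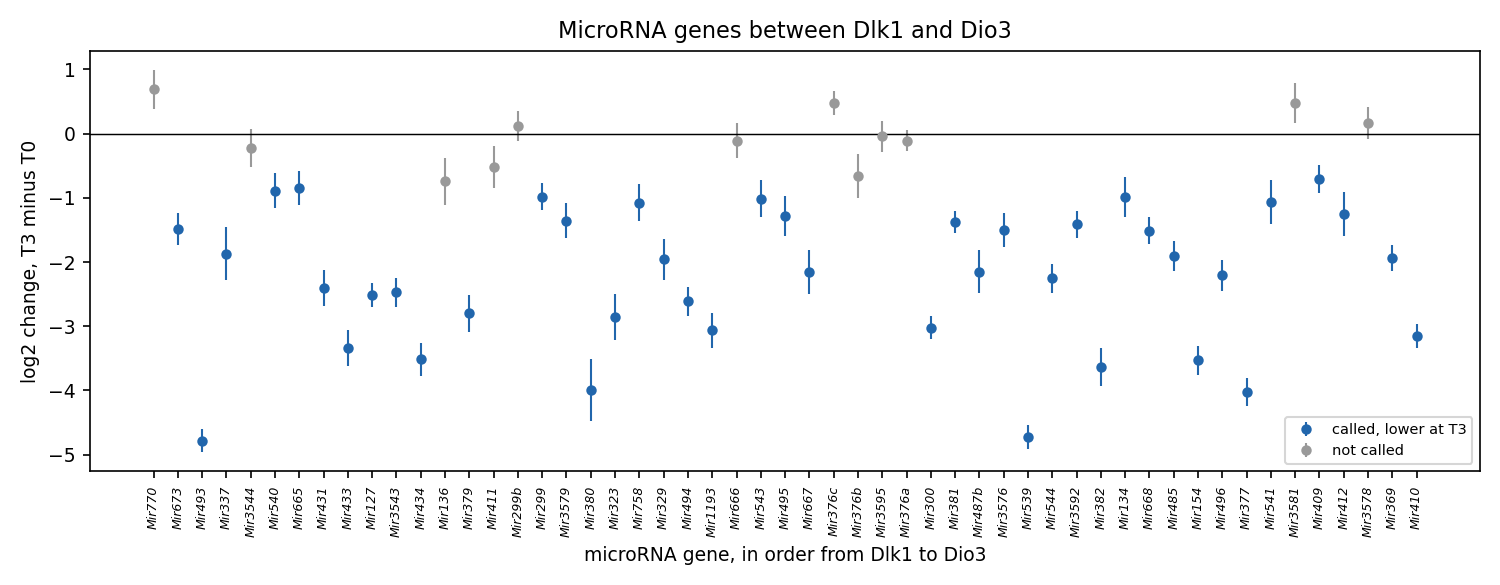
Change in log2 signal, T3 minus T0 (y axis, bars are limma's SE), of the 53 microRNA genes between Dlk1 and Dio3 in their order along the chromosome (x axis). The 41 called genes lie below 0 along the whole cluster, down to Mir493 (-4.78) near one end, and the 12 genes not called lie among them.

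Of 18 microRNA genes known from cartilage, blood or muscle, 2 rose and 7 fell. RefSeq held a mature sequence for 344 of the 363 microRNA genes on the array, and the 3 that follow are shown with the seed in capitals because their genes had the largest changes of that list. The cartilage microRNA gene Mir140, which lies in an intron of Wwp2, had signals of 4.21, 3.85 and 4.46 on the T3 arrays against 7.01, 7.61 and 7.66 on the T0 arrays (change -3.26, SE 0.26, limma adjusted p = 1.34e-06). The myeloid Mir223 had 5.77, 5.0 and 7.51 on the T3 arrays against 3.61, 2.71 and 3.72 on the T0 arrays (change 2.75, SE 0.48, adjusted p = 0.00103). The blood cell Mir142 rose by 2.03 (SE 0.35). Mir199a2 fell by 1.68 (SE 0.22), and Mir133b, of muscle, by 1.94. Other microRNA genes that rose were Mir1949 (2.70, SE 0.67), Mir1224 (2.38, SE 0.60) and Mir328 (1.80, SE 0.48). These 3 lost the call without T0 replicate 2, Mir1949 and Mir328 also without T3 replicate 1, and Mir328 without T3 replicate 2. Counts of rises among the 310 ran from 8 to 40 over the fits without 1 array, 8 without T0 replicate 2 and 40 without T3 replicate 3.
rno-miR-140-3p: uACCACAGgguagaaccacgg
rno-miR-223-3p: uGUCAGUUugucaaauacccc
rno-miR-142-3p: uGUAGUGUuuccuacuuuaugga

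Named long non-coding RNA genes showed few calls. Of 39 on the array, 1 fell (2.56%) and none rose in limma's test, while 0 to 5 rose over the alternatives. The 17599 of 36685 probe sets without a symbol were not in this count, so it covers named genes only. The gene that fell, Vof16, had signals of 4.82, 4.75 and 5.28 on the T3 arrays against 6.57, 7.68 and 8.0 on the T0 arrays (change -2.47, SE 0.38, limma adjusted p = 0.000399). Snhg11 had 3.76, 4.14 and 3.80 on the T3 arrays against 3.15, 3.24 and 3.14 on the T0 arrays. The stages did not overlap, as for 14 of the 39 genes, and its change of 0.72 (SE 0.31) was not called (limma adjusted p = 0.124).

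Receptors and ligands of the TGF-beta and BMP pathways, which direct cartilage formation, fell in 13 of 28 cases at a median of -0.73. The BMP receptor Bmpr1a had signals of 5.87, 5.37 and 6.32 on the T3 arrays against 8.82, 8.88 and 8.62 on the T0 arrays (change -2.92, SE 0.34, limma adjusted p = 3.89e-05). Bmpr1b fell by 1.87 (SE 0.23), the type I receptor Acvr1 by 1.69 (SE 0.22), the ligand Tgfb3 by 2.29 (SE 0.31) and Bmp4 by 2.23. The ligand Tgfb1, which immune cells also make, rose (0.77), a call lost without T0 replicate 2. Wnt pathway genes fell in 15 of 30 cases with none higher, at a median of -0.80, among them the co-receptor Lrp6 (-1.78, SE 0.25), the receptor Fzd4 (-1.92, SE 0.30) and the secreted modulators Dkk3 (-1.96, SE 0.32) and Sfrp1 (-1.64). No Wnt ligand in the list was called, and the target Axin2 had a change of -0.23.

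Limb patterning factors were lower in 7 of 18 cases, led by Shox2 (-1.99, SE 0.32) and the forelimb factor Tbx5 (-1.82, SE 0.39), with Hoxa9 (-1.09, SE 0.24) and Hoxc10 (-1.30, SE 0.36). The call of Hoxc10 was lost without T3 replicate 2 or 3 or T0 replicate 1 or 2. The count was 3 without T0 replicate 2 and 4 without T0 replicate 3. Mechanosensing genes fell in 12 of 17 cases at a median of -1.66. Ankrd1, a target of the YAP coactivator, had signals of 4.41, 4.33 and 5.22 on the T3 arrays against 8.51, 8.23 and 7.06 on the T0 arrays (change -3.28, SE 0.33, limma adjusted p = 1.02e-05). Yap1 itself (-1.97), its partner Tead1 (-2.79, SE 0.31), the matricellular Ccn3 (-3.18, SE 0.36) and the osmosensing channel Trpv4 (-2.34, SE 0.23) fell. Ccn2 had an uncalled change of -0.66.

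Circadian clock genes fell in 11 of 16 cases with none higher, at a median of -1.27. Both activators and repressors of the loop were among them: Clock (-1.95, SE 0.25), its partner Bmal1 (-1.35), the relative Npas2 (-1.68, SE 0.30), Rora (-1.74, SE 0.24), Bhlhe40 (-2.31, SE 0.35) and Nr1d1 (-2.02). The sources used here do not give the hour of day at which tissue was taken. The output gene Dbp, which cycles strongly in many tissues, had a change of -0.11. Immediate early genes were mixed, with 3 of 21 higher (14.3%) and 5 lower (23.8%), against 8.75% and 13.9% of all genes. Junb (0.83, SE 0.19) rose, while Egr1 (-1.11, SE 0.26), Klf4 (-1.60, SE 0.35) and Klf6 (-1.38, SE 0.28) fell. Of these genes 1 rose without T3 replicate 1 or T0 replicate 2, and 3 fell without T3 replicate 1 or T0 replicate 1.

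Skeletal muscle markers fell in 17 of 19 cases at a median of -5.05, the largest median of the lists. Their median signal was 5.40, 5.72 and 5.95 on the T3 arrays against 10.69, 11.07 and 10.46 on the T0 arrays. The elderly arrays lay near the median of all genes, and the newborn arrays far above it. Neb, the thin filament ruler, had 4.47, 4.89 and 5.95 on the T3 arrays against 10.69, 11.02 and 10.46 on the T0 arrays (change -5.62, SE 0.39, limma adjusted p = 3.55e-07). Skeletal alpha-actin, Acta1, fell by 5.05 (SE 0.31), and Des, the intermediate filament of muscle, by 5.22 (SE 0.33). The myogenic factor Myod1 (-0.72) and Pvalb (-0.26) were not called. The part of this muscle signal in other falls was not tested.

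Tendon and synovium markers, 14 of 17 lower at a median of -2.35, fell as well. Tnmd, tenomodulin, a tendon membrane protein, had signals of 4.43, 4.59 and 4.69 on the T3 arrays against 9.99, 9.92 and 10.01 on the T0 arrays (change -5.40, SE 0.38, limma adjusted p = 4.21e-07). Dpp4, a surface peptidase of fibroblast precursors and also of T cells, was the 1 member that rose (2.13, SE 0.22). Smooth muscle and pericyte markers fell in 9 of 11 cases, such as Mcam (-2.59, SE 0.31), Cspg4 (-2.32, SE 0.32) and Abcc9 (-1.63, SE 0.23). Endothelial markers fell in 6 of 15 cases, led by the vessel cadherin Cdh5 (-2.48, SE 0.31) and Plvap (-1.43, SE 0.23), with Flt1 (-0.93, SE 0.23) and Esam (-0.90, SE 0.21). The endothelial count was 3 without T0 replicate 2 and 9 without T3 replicate 3, and the call of Flt1 was lost without T0 replicate 2 or T3 replicate 2. Of 11 nerve markers 3 fell, among them Pmp22 (-3.77, SE 0.47) and S100b (-1.70, SE 0.32), and Mbp rose (1.94, SE 0.25).

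Erythroid genes rose in 13 of 13 cases at a median of 3.60. Their median signal was 10.01, 10.49 and 10.59 on the T3 arrays against 6.59, 5.05 and 4.92 on the T0 arrays. The T0 replicate 1 array stood above the other newborn arrays here as it did for Defa5. Rhag, a red cell membrane protein, had 8.45, 8.62 and 8.70 on the T3 arrays against 4.90, 4.03 and 4.64 on the T0 arrays (change 4.07, SE 0.40, limma adjusted p = 1.03e-05). Among regulators of red cell formation, the factor Klf1 rose by 2.13 (SE 0.21) and the erythropoietin receptor Epor by 2.09 (SE 0.19). Epb42, a protein of the red cell membrane skeleton, rose by 3.60 (SE 0.36). The globin Hba-a1 rose by 2.13, with newborn signals of 9.58 to 10.72, and the globin Hbb-b1 by 2.36, with newborn signals of 9.63 to 10.58. Both calls were lost without T3 replicate 2 or T0 replicate 3, that of Hba-a1 also without T0 replicate 2 and that of Hbb-b1 without T3 replicate 1.

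Neutrophil and myeloid genes rose in 18 of 21 cases at a median of 4.19. Their median signal was 9.12, 9.30 and 9.61 on the T3 arrays against 5.75, 4.89 and 5.24 on the T0 arrays. Genes of primary granules, made in marrow precursors, were among them: the protease Prtn3 had 8.71, 8.82 and 9.28 on the T3 arrays against 5.06, 4.37 and 4.80 on the T0 arrays (change 4.19, SE 0.36, limma adjusted p = 2.93e-06). Elane (4.56), Ctsg (4.43) and the granule regulator Cebpe (2.18, SE 0.23) rose as well. Fcnb, a ficolin, rose by 4.17 (SE 0.45). Genes of later granules split, with Camp and Ngp (5.06) higher, while the lactoferrin gene Ltf (0.21) and the gelatinase Mmp9 (0.14) were not called. Lcn2 had 6.33, 9.73 and 9.61 on the T3 arrays against 7.65, 7.14 and 7.66 on the T0 arrays, so that its stages overlapped.

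B cell genes rose in 14 of 16 cases at a median of 2.11. Cd79a, a signalling part of the B cell receptor, had signals of 8.83, 8.38 and 8.51 on the T3 arrays against 5.92, 5.73 and 5.91 on the T0 arrays (change 2.72, SE 0.26, limma adjusted p = 7.04e-06). Blnk rose by 2.60 (SE 0.24), Ms4a1, or CD20, by 2.41 (SE 0.25), and the recombinase gene Rag1, of B and T cell precursors, by 2.14. Variable segment genes of immunoglobulins and T cell receptors rose in 19 of 48 cases with none lower. T and NK cell genes rose in 8 of 20 cases at a median of 0.65, led by Nkg7 (4.20, SE 0.44), a granule protein that some myeloid cells also carry, and Il7r (2.66, SE 0.31). The T cell genes Cd8a (1.18, SE 0.20) and Cd3g (1.05, SE 0.23) rose from dim signals, with Cd3g at 4.96, 4.75 and 4.89 on the T3 arrays against 3.82, 3.67 and 3.97 on the T0 arrays. The T and NK count was 5 without T3 replicate 1 or without T0 replicate 2.

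Macrophage, mast cell and stem cell markers were mixed. Of 19 macrophage genes 6 rose, among them Fcgr1a (2.15, SE 0.34), Cd5l (2.08, SE 0.39), Adgre1 (1.44, SE 0.19) and Mpeg1 (0.96, SE 0.21), and Cd14 fell (-1.12), a call lost without T3 replicate 1 or 2 or T0 replicate 2 or 3. The receptor Csf1r, which defines the lineage, had a change of -0.17. Among mast cell genes, the IgE receptor chains Ms4a2 (3.41, SE 0.47) and Fcer1a (2.00, SE 0.30) and the histamine enzyme Hdc (2.14, SE 0.30), which basophils share, rose. The mast cell carboxypeptidase Cpa3 (-2.27, SE 0.29) and the tryptase Tpsab1 (-1.81) fell. Blood progenitor genes rose in 7 of 12 cases, led by the factors Tal1 (3.07, SE 0.32) and Ikzf1 (2.62, SE 0.17), with Gfi1b (1.68, SE 0.22) and Gfi1 (1.33, SE 0.18), while Cd34, also of vessels and fibroblasts, fell (-3.09).

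Bone and fat markers were mixed too. Of 17 osteoblast and osteocyte genes 4 rose and 3 fell. Bglap, osteocalcin, a protein of mature osteoblasts, had signals of 10.07, 9.37 and 9.29 on the T3 arrays against 6.95, 6.28 and 7.04 on the T0 arrays (change 2.82, SE 0.35, limma adjusted p = 6.13e-05). The osteocyte genes Mepe (1.48) and Sost (1.14, SE 0.21) rose, while Pdpn (-2.78, SE 0.31) and Smpd3 (-1.96, SE 0.34) fell. Of 10 osteoclast genes 2 rose: Car2 (4.29, SE 0.68), also an erythroid gene, and Oscar (0.82, SE 0.25), whose call was lost in 12 of 19 alternatives, among them without T3 replicate 1 or 3 or T0 replicate 2 or 3. Of 15 adipocyte genes 4 rose, such as Cfd (2.85, SE 0.36), Cebpa (1.26, SE 0.25) and Adipoq (1.44), and 3 fell, such as Car3 (-4.35, SE 0.35), which is also abundant in muscle, and Lpl (-2.23, SE 0.25).

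Of 34 cell cycle genes 17 rose and 1 fell, at a median of 1.03. Cdc6, a licensing factor of DNA replication, had signals of 7.37, 6.86 and 7.51 on the T3 arrays against 4.65, 5.03 and 5.23 on the T0 arrays (change 2.28, SE 0.34, limma adjusted p = 0.000297). The mitotic kinase gene Aurka rose by 1.41 (SE 0.20), the spindle factor Tpx2 by 1.54 (SE 0.25) and the centromere histone Cenpa by 1.35 (SE 0.19). The proliferation marker Mki67 had 10.65, 10.48 and 11.15 on the T3 arrays against 9.50, 9.35 and 9.41 on the T0 arrays, without overlap. Its change of 1.34 (SE 0.67) was not called (limma adjusted p = 0.192), and the SE rests on the spread within all 5 stages. The G1 cyclin Ccnd1 was the gene that fell (-1.14), a call lost without T3 replicate 1 or T0 replicate 2 or 3. The count of rises was 11 without T3 replicate 3 or T0 replicate 1, 10 without T0 replicate 2 and 11 after median centring. It was 28 after cyclic loess, 27 without the T4 arrays or with array weights, and 21 with the 6 arrays alone. Histone genes, whose transcripts accompany DNA replication, rose in 13 of 27 cases with none lower. The blood and marrow lists above moved in the same direction on the same arrays, and their part in these rises was not tested.

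Antigen presentation genes rose in 16 of 19 cases with none lower, at a median of 1.39. The count of rises was 12 to 15 over the fits without 1 array, lowest without T0 replicate 2. It was 12 after median centring, and 17 without the T4 arrays or with array weights. The call of Ciita was lost in 11 alternatives, treat not counted. Psmb8, an immunoproteasome subunit, had signals of 8.43, 8.41 and 8.01 on the T3 arrays against 4.49, 5.47 and 5.65 on the T0 arrays (change 3.08, SE 0.37, limma adjusted p = 4.89e-05). RT1-Da, the alpha chain of a rat MHC class II molecule, which shows peptides to helper T cells, had 7.80, 8.05 and 8.29 on the T3 arrays against 6.13, 5.52 and 5.78 on the T0 arrays (change 2.24, SE 0.36). The class II invariant chain Cd74 rose by 2.67, the peptide loading protein Tapbp by 1.56 (SE 0.22) and Psmb9 by 1.45 (SE 0.18). RT1-CE4, a class I heavy chain, rose by 2.31, so that genes of both classes were among those that rose.

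Interferon-stimulated genes rose in 6 of 25 cases at a median of 0.90, with 24 of 25 changes above 0. Rsad2, viperin, an antiviral enzyme, had signals of 9.61, 9.90 and 9.96 on the T3 arrays against 5.41, 4.97 and 4.71 on the T0 arrays (change 4.80, SE 0.68, limma adjusted p = 0.000174). Irf9 rose by 1.56 (SE 0.32), the RNA sensor Ifih1 by 1.52 (SE 0.30) and Ifit3 by 1.87 (SE 0.56). The count was 3 or 4 whenever 1 of the 6 arrays was left out, and 15 with the 6 arrays alone in the fit. Ifit1 (3.63), Ifit3 and Dhx58 (1.21) were the rising genes whose calls were lost when any 1 of the 6 arrays was left out. Ifi27 was called lower (-1.22) although its stages overlapped, a call lost without any 1 of those arrays but T3 replicate 3.

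Promoters of these lists were searched on both strands for short letter patterns that transcription factors are known to bind, in RefSeq windows (GRCr8) of 250 bases before to 50 after each gene's start. A list gene counted once if any window of it matched. The share of all promoters counts windows and is not limited to genes measured here, so the 2 shares are not strictly alike. The class II promoter element known as the Y box contains CTGATTGG, which was found in 8 of 17 promoters of antigen presentation genes (47.1%) and in 3.5% of all 33469 promoters. The core of the interferon-stimulated response element, TTTC then 2 bases of any kind then TTTC, was found in 12 of 17 promoters of interferon genes (70.6%) and in 3.92% of all promoters. The promoters of RT1-Da (chr20:4515165-4515464, plus strand) and Rsad2 (chr6:48788071-48788370, minus strand) are shown because they carry these patterns, in capitals, in genes that rose.
RT1-Da: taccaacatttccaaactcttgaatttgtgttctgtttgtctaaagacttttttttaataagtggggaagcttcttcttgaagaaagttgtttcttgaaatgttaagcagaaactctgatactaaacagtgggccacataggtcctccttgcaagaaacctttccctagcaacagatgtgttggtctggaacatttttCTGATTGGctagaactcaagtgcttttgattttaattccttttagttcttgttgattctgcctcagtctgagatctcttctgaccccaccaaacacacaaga
Rsad2: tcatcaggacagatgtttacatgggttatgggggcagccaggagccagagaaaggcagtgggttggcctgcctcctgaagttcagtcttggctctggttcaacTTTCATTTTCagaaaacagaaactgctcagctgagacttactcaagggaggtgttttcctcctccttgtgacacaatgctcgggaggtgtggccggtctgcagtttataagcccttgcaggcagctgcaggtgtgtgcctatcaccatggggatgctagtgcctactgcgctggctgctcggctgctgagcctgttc

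A pattern match is a description of letters and not of binding, and the patterns were not limited to 1 list or to genes that rose. CTGATTGG was also found in 6 of 24 cell cycle promoters and in 3 of 17 (17.6%) of skeletal muscle, a list that fell, and the interferon pattern in 35.3% of antigen presentation promoters. Of the 12 interferon genes with the pattern, 3 were called higher, and Ifi27, which was called lower, was also among the 12. In all, 16 patterns were searched in 7 lists, and those given were picked after the counts were seen. TTGCNNAA, which C/EBP factors can bind, was found in 6 of 17 neutrophil and myeloid promoters (35.3%) and in 10.6% of all promoters. TTTGAA, of the cell cycle homology region, was found in 10 of 24 cell cycle promoters (41.7%) and in 18.3% of all. A pattern of the erythroid GATA factors, AGATAAG, was found in 1 of 9 erythroid promoters (11.1%) and in 2.87% of all. The other patterns, with their shares of all promoters, were AGATAA (11.6%), GATTGG (14.8%), TTGCGCAA (0.17%), CCAAT (37.5%), TTCNNGGAA (4.94%) and CANNTG (72.1%). Longer ones were GGAA then 2 bases of any kind then GAAA (2.94%), AAAG then any base then GGAAGTG (0.0717%), CTATT followed by TATAG (0.128%), CTA then 4 bases of any kind then TAG (3.84%), and ATTGG with 9 more bases of the window after it (36.9%). The shorter erythroid pattern lies within the longer one, and GATTGG lies within the Y box pattern. TTGCGCAA is a form of TTGCNNAA. The pattern CCAAT is read as ATTGG from the other strand.

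Inflammatory mediators rose in 9 of 23 cases at a median of 0.63. S100a9, the partner of S100a8 in calprotectin, had signals of 12.39, 12.44 and 12.36 on the T3 arrays against 8.45, 6.24 and 7.61 on the T0 arrays (change 4.96, SE 0.67, limma adjusted p = 0.000124). The interleukin 1 antagonist Il1rn rose by 2.47 (SE 0.30), caspase 1 (Casp1) by 2.25 (SE 0.34) and Il1b by 1.62 (SE 0.28). The chemokine Ccl2 fell (-1.33, SE 0.30). Il6 (0.17), Ptgs2 (-0.18) and Tnf (0.41), other classical mediators of joint inflammation, were not called. Complement genes rose in 5 of 16 cases, led by C3, the central component, with 8.66, 8.84 and 9.60 on the T3 arrays against 5.60, 4.83 and 5.15 on the T0 arrays (change 3.85, SE 0.49, adjusted p = 8.4e-05). The alternative pathway genes Cfd and Cfp (1.73, SE 0.35) rose too, and C6 by 1.41 (SE 0.36), while the initiators C1qa, C1qb, C1qc, C1r and C1s were not called. The complement count was 3 without T0 replicate 2, and C6 lost its call there.

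Of 19 senescence genes 2 rose (10.5%) and 4 fell (21.1%), at a median of 0.38. Of all genes, 8.75% rose and 13.9% fell, so the share that rose was near that of all genes. The arrest gene Cdkn1a, or p21, had signals of 5.46, 5.66 and 5.31 on the T3 arrays against 7.96, 7.64 and 7.37 on the T0 arrays (change -2.18, SE 0.22, limma adjusted p = 1.01e-05). Cdkn2a, the p16 and p19 locus, had an uncalled change of 0.54, and Cdkn2b of 0.38. The members that rose were Il1b and Cdkn1b (0.99), and Cdkn1b lost its call without T3 replicate 1 or T0 replicate 3. Of 18 autophagy genes, Atg7 (0.77, SE 0.23) and Atg4b (0.67, SE 0.20) rose and Wipi1 fell (-0.94, SE 0.21). These were 11.1% higher and 5.56% lower, near or below the shares of all genes. The calls of Atg7 and Atg4b were lost without T0 replicate 1, 2 or 3, that of Atg7 also without T3 replicate 3 and that of Atg4b without T3 replicate 1.

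Antioxidant genes rose in 6 of 25 cases, with glutathione enzymes among them. Gclm and Gclc, the subunits of the enzyme that limits glutathione synthesis, rose by 1.66 (SE 0.37) and 1.19 (SE 0.26), glutathione reductase Gsr by 1.36 (SE 0.30), and the peroxidase Gpx1 by 2.03. Gclm had 8.33, 8.51 and 8.50 on the T3 arrays against 6.79, 7.03 and 6.52 on the T0 arrays (limma adjusted p = 0.00539). Gpx7, a peroxidase of the endoplasmic reticulum, fell (-1.62, SE 0.26). The superoxide dismutases Sod1 (0.68), Sod2 (0.01) and Sod3 (-1.22) and the regulator Nfe2l2 (-0.41) were not called.

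In a list of respiratory chain genes 6 of 24 were lower and none higher, at a median of -0.55. The largest fall among the 6 was that of Ppargc1a, which is not a subunit of the chain. Ppargc1a, the coactivator that promotes mitochondrial growth, had signals of 3.62, 4.31 and 3.64 on the T3 arrays against 6.50, 6.71 and 6.04 on the T0 arrays (change -2.56, SE 0.25, limma adjusted p = 1.01e-05). The complex II subunits Sdhc (-1.56, SE 0.22) and Sdhb (-1.06, SE 0.23) and the complex I subunit Ndufa9 (-1.13, SE 0.23) fell. The count was 3 after quantile normalization and 14 without the T4 arrays. Among 20 hypoxia and glycolysis genes, the glucose transporter Slc2a3, abundant in leukocytes, rose (1.92, SE 0.26), while Pdk1 (-1.32, SE 0.32), Car12 (-1.30, SE 0.28) and Vegfa (-1.21, SE 0.27) fell. Egln3 (-1.20) was called although its stages overlapped, and lost the call without T3 replicate 1 or T0 replicate 1 or 2. Without T3 replicate 3, 8 of the 20 fell. Secretory pathway genes fell in 9 of 24 cases, among them the retrieval receptors Kdelr3 (-2.42, SE 0.24) and Kdelr2 (-1.97, SE 0.24), the coat protein Sec24d, which carries collagen out of the endoplasmic reticulum (-2.58, SE 0.31), and the factor Creb3l2 (-2.14, SE 0.27). The chaperone Hspa5 had an uncalled change of -0.76.

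**Figure D4:**
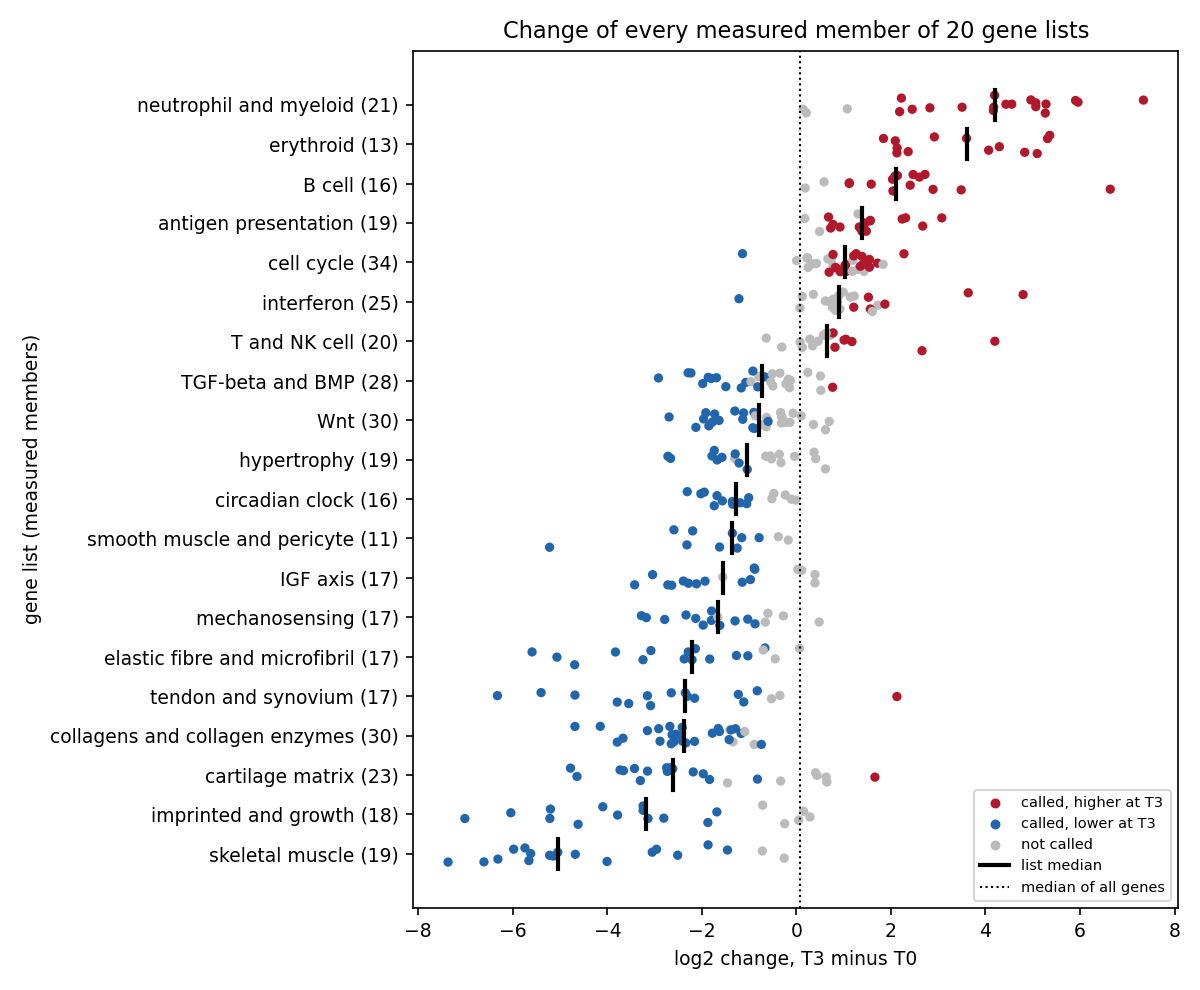
Change in log2 signal, T3 minus T0 (x axis), of every measured member of 20 gene lists (rows, with the number of members), coloured by call, with a bar at each list's median and a dotted line at the median of all genes (0.08). Lists run from skeletal muscle (median -5.05) to neutrophil and myeloid (median 4.19), and most members of the outer lists lie on the side of their median.

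The stages between and after placed these differences in time. Values at each stage are medians of the members' change from T0, so all 4 share the T0 arrays and are given side by side. From T1 through to T4, cartilage matrix stood at -0.36, -1.08, -2.62 and -3.30, and collagen biosynthesis at -0.82, -1.65, -2.38 and -3.16. These lists were lower at each later stage. Skeletal muscle stood at -2.04, -5.58, -5.05 and -4.49, and imprinted growth genes at -1.94, -3.03, -3.19 and -2.82, so that most of the T3 value was present by T2. Erythroid genes stood at 4.23, 3.73, 3.60 and 2.19, neutrophil and myeloid genes at 3.39, 5.11, 4.19 and 2.73, and interferon genes at 1.98, 2.27, 0.90 and 0.79. These values were highest at T1 or T2 and lower at T3. For interferon genes the T2 arrays were far apart, with median signals of 6.12, 6.95 and 8.5. The T1 arrays had a mean of 6.82 (SD 0.33, n = 3), so a peak at T2 rather than T1 cannot be read from these values. Hypertrophy genes stood at 0.59, -0.06, -1.04 and -1.69. Signals were less spread on the T4 arrays than at any other stage, with an SD over probe sets of 1.62 ± 0.13 (SD, n = 3). The T4 arrays correlated with each other at a mean of 0.839, and T4 replicate 1 with the T0 arrays at 0.523. Erythroid genes had median signals of 5.99, 9.15 and 9.23 on the T4 arrays. The part of these array differences in the T4 values was not tested.

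**Figure D5:**
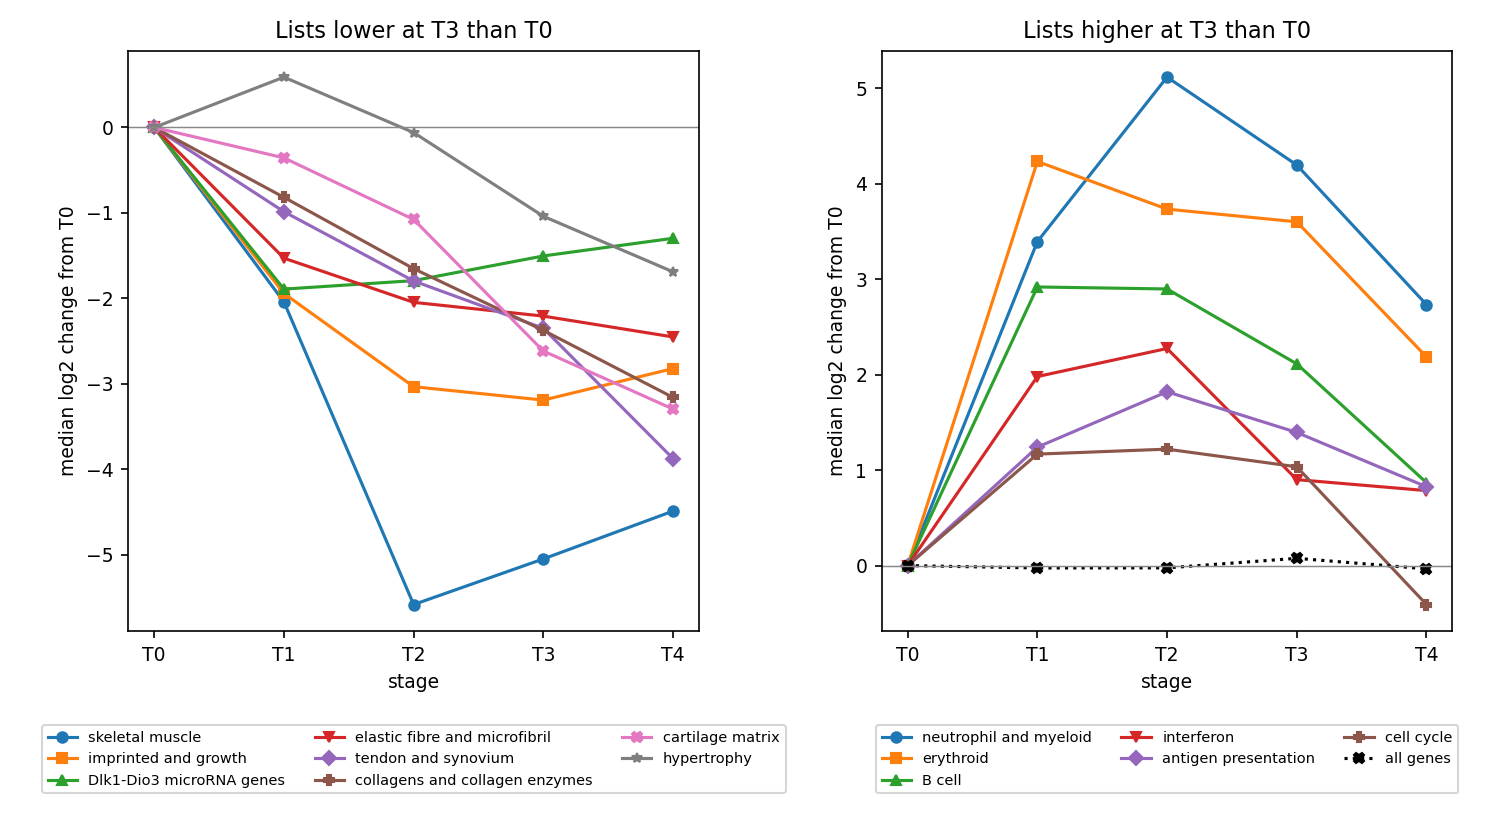
Median change in log2 signal from T0 (y axis) of gene lists at stages T0 to T4 (x axis), for lists lower at T3 (left) and higher at T3 (right), each point a median over the list's members of the mean of 3 arrays. Cartilage matrix is lower at each stage, to -2.62 at T3, while skeletal muscle is already at -5.58 at T2.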

How the data were processed

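The authors deposited log2 signals for 36685 probe sets on 15 arrays, which RMA produced, per the submitters' processing notes. This method corrects background, equalises signal distributions over arrays and summarises probes, and can hide a shift that all genes share. The sources used here do not name its version, library file or build. The number of arrays limits the precision.

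Samples were grouped by stage label, 3 arrays in each of 5 stages. T1 replicate 3 is adult in its source name and youth elsewhere; it was kept in T1, with T2 as an alternative. The 15 arrays entered 1 limma fit (3.58.1, R 4.3.3) whose terms were the 5 stage means, moderated by eBayes with 10 residual degrees of freedom, adjusted by Benjamini-Hochberg over all probe sets, and tested on simulated data.

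The platform annotation gave 1 symbol to 18511 probe sets, several to 575 and none to 17599. By Entrez identifier 18394 matched a RefSeq gene. The brightest probe set stood for each of 18166 genes, 291 of which had several. Gene lists (44) and alternatives were chosen with earlier results of these data known. Lists overlap, and are described by counts and medians, with no test of a list.

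Named genes were, among called genes without overlap between stages, the 12 that rose most and the 12 that fell most (without LOC, RGD, AABR, Olr, Mir, Snor and Vom symbols), up to 4 called members of each list by smallest p, for a list without calls its most changed member, the 3 lncRNA and 6 microRNA genes at each end of the change, and Col2a1, Acan, Prg4, Col10a1, Sox9, Mmp13 and Igf2. Other list members named in the text were chosen after their values were seen. Alternatives changed the samples, normalization, variance model, filters and probe set choice. Array weights were estimated gene by gene, since limma's default method did not converge, a choice made after seeing that.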

Additional observations from a re-analysis of the deposited data

How the results depend on the processing

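Of 199 named genes, 195 were called, and 179 of them were called under every one of 19 alternatives but the test against a log2 change of 1 (limma's treat). None of the 195 called genes turned its direction. For named genes that were not called, a turn was counted only where an alternative called the gene. Called probe sets, 6555 in the text, numbered 9873 with array weights, 1126 with treat, 6021 with the replicate block, and 4383 to 8574 over the fits without 1 array. Called genes, 4117 in the text, numbered 773 with treat, 3771 with the replicate block and 2905 to 4824 without 1 array. Rising genes (1590) numbered 2478 without the T4 arrays, 2494 with array weights, 267 with treat and 1059 to 1919 without 1 array, lowest without T0 replicate 2. Falling genes (2527) numbered 506 with treat and 1846 to 2905 without 1 array. Called non-coding genes (92) numbered 26 with treat and 65 to 108 without 1 array. Replicates numbered alike at T3 and T0 did not deviate together from their stage means (correlations of -0.00879, -0.0441 and -0.0044), and the main fit did not pair them. A batch or handling that they share was not tested. With the replicate block, Oscar alone of the 199 lost its call, and 14 other list members did so outside them, Ifit1 among them. Among the 199, the calls of Oscar (12 alternatives), Ifit3 (10), Atg7 (9), Atg4b (7), Hoxc10 (5) and Mir328 (5) were lost most often; outside them, Ifit1 and Ifi27 (11 each, treat not counted) and Dhx58 (10) were as unsteady. List medians of known lncRNA genes (-0.01 to 0.77), autophagy (-0.21 to 0.11), mast cell (-0.06 to 0.56), osteoclast (-0.01 to 0.40) and other microRNA genes (-0.13 to 0.27) changed sign over the alternatives. The causes were not tested.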
